A study of Homo sapiens with 6 samples.

Results

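The genes described here encode the machinery that licenses replication origins and copies DNA at the fork. They are 51 of the 38637 genes in the deposited table, chosen by symbol for their role: the origin recognition complex (ORC), the loading factors, the MCM proteins, the partners that complete the helicase, the replicative polymerases, the sliding clamp and its loader, RPA, the enzymes that finish Okazaki fragments and the proteins that protect the fork. All 51 were found in the table and all 51 passed the filter on low values, a mean of at least 1 TPM over the libraries, as did 13980 genes in all. TPM, the unit of the deposited values, divides the reads of a gene by its length and scales each library to the same total, so TPM levels of different genes can be compared.

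PolyA-Seq, the sequencing of polyadenylated RNA, was carried out on HCCLM3-SR cells, the sorafenib-resistant form of the human hepatocellular carcinoma (HCC) line HCCLM3. In 3 libraries the cells had been transfected with siRNA against cDCBLD2, a circular RNA made from the DCBLD2 gene, and in 3 libraries with control siRNA. Both groups were kept with sorafenib, a multikinase inhibitor, at 5 µM, and both received their siRNA for 3 days, so every value below was measured under the drug. All libraries come from 1 cell line, and the labels give replicate numbers 1 to 3 in each group without saying what the numbers stand for, so p-values measure only the spread between these libraries, which may be technical.

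Before S phase, ORC marks origins, and CDC6 and CDT1 load the MCM2-7 ring around the DNA there in an inactive form. Kinases then let CDC45 and the GINS complex join the ring to make the active CMG helicase, polymerase alpha-primase lays down primers, polymerases epsilon and delta extend the leading and lagging strands, and the clamp PCNA, loaded by replication factor C (RFC), holds the polymerases on the DNA. Many of these genes are transcribed under E2F control around the start of S phase, and their mRNA is therefore commonly read as a sign of proliferating cells.

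Promoters of 5 members are shown because their genes, POLA1, DTL, MCM6, RFC3 and POLD4, span the range from the largest decrease to the only increase with the replicate block described below. Each sequence is the 250 bases before the annotated start, 5′ to 3′ on the strand of the gene, from RefSeq on GRCh38.p14. Capitals mark an E2F-type motif (TTT, then a pair of bases that are each C or G, then CGC) or a CCAAT box, read on either strand, and 2 E2F-type matches that overlap are shown as 1 run. POLA1 is from chrX:24693668-24693917 (plus strand), DTL from chr1:212035498-212035747 (plus strand), MCM6 from chr2:135876444-135876693 (minus strand), RFC3 from chr13:33817899-33818148 (plus strand) and POLD4, for which the table gives 2 starts and the first is shown, from chr11:67353597-67353846 (minus strand).
POLA1: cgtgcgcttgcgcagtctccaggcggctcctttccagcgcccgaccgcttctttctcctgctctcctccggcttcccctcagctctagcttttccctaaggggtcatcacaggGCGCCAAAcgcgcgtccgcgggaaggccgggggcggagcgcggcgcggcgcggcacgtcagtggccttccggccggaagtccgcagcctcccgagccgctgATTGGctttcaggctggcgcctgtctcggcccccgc
DTL: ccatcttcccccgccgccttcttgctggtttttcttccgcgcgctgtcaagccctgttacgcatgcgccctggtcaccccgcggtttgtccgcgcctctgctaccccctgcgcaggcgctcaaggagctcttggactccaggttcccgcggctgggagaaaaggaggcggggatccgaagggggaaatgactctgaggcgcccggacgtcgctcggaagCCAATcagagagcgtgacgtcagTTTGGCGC
MCM6: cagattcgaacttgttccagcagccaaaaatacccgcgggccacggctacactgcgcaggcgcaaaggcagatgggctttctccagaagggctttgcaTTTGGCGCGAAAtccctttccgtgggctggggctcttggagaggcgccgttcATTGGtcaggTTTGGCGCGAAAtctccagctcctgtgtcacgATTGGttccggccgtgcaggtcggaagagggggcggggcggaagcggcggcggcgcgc
RFC3: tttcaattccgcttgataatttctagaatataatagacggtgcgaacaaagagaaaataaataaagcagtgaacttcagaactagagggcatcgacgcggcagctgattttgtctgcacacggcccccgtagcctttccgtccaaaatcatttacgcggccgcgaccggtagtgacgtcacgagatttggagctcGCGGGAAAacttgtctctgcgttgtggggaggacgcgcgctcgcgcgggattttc
POLD4: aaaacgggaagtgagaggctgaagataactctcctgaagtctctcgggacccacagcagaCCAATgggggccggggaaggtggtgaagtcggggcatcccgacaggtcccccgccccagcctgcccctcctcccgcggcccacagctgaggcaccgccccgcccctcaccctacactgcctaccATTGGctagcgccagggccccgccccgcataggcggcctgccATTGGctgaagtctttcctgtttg

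POLA1 carried an E2F-type motif on the opposite strand at bases -137 to -130 from the start, and DTL carried one on the same strand that ended at base -1. MCM6 carried 4 matches in 2 overlapping pairs, at bases -152 to -141 and -90 to -79. In RFC3 the motif lay at bases -55 to -48, and POLD4 held 3 CCAAT boxes and no E2F-type motif in the bases shown. Among the 45 members with an entry in the promoter table, 23 held the E2F-type motif in the window from 250 bases before to 50 bases after a start, which is 51.1% of these genes. The same motif was found in 6.68% of the genes that passed the filter, in 3.99% of all genes in the promoter table and in 3.31% of all 35116 promoters of that length. Some members have several starts in the table, and the motif was present in 39.7% of the members' 58 promoters. A CCAAT box was present in 64.4% of the members, against 42.7% of the genes that passed the filter and 39.7% of all genes. The cell-cycle homology region (TTTGAA or TTTAAA) was present in 6.67% of the members, against 20.8% and 27.9%. A match is a description of the letters and not evidence of binding. The 6 members with no entry were MCM4, MCM5, GINS4, POLD3, RPA2 and RPA3.

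Between 17489227 and 23058947 reads per library could be recovered from the ratios of the TPM values, and the members held between 98 reads (POLE2 in a knockdown library) and 16930 reads (MCM7 in a control library) each. The DCBLD2 host gene was measured at 58.1, 25.9 and 31.6 TPM after knockdown and at 71.5, 48.5 and 50.7 TPM in control cells, groups that overlapped. It was lower in the knockdown library of each pair, with a log2 fold change of -0.61 that was called with the replicate block described below (limma adjusted p = 0.0139) and not without it (limma adjusted p = 0.253). The circular RNA itself is not measured by a gene's TPM. Of 10 hepatocyte-lineage markers 7 reached a mean of 1 TPM, with KRT8 at 3000 to 4410 TPM and HNF4A at 22.9 to 31.3 TPM, while ALB (0.189 to 1.58 TPM) and APOA1 (0.35 to 0.774 TPM), which define mature hepatocytes, were low. Of 7 markers of immune cells, fibroblasts and endothelium 3 reached it, CD68 (90 to 125 TPM), PECAM1 (3.63 to 5.64 TPM) and COL1A1 (1.13 to 11.2 TPM), and CD3E was listed at 0 in all libraries. Some markers also differed between the groups, in both directions. TTR, a hepatocyte-lineage marker that did not pass the filter and was not tested, was at 1.64, 1.55 and 1.3 TPM after knockdown. In control cells TTR was at 0.241, 0.202 and 0.203 TPM, without overlap. COL1A1, a fibroblast collagen, was at 11.2, 3.61 and 3.64 TPM after knockdown and at 3.35, 1.13 and 2.15 TPM in control cells, and it was called higher with the block (log2 fold change 1.06, limma adjusted p = 0.0132), as were KRT8 (0.32, limma adjusted p = 0.00669), KRT18 (0.26, limma adjusted p = 0.00954) and HNF4A (0.30, limma adjusted p = 0.0196), while APOB was called lower (-0.80, limma adjusted p = 0.0126). The summed markers of these other cells ranged from 113 to 134 TPM after knockdown and from 97.6 to 119 TPM in control cells, and the part of these markers in the results below was not tested.

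Replicate 1 stood apart in both groups. It was the highest of the 3 knockdown libraries for 44 of the 51 members (86.3%, against 51.8% of all genes tested) and the highest of the 3 control libraries for 48 members (94.1%, against 47.6%). Its median excess over the mean of the other two libraries on the log2(TPM + 1) scale was 0.32 after knockdown and 0.41 in control cells for the members, against 0.08 and 0.04 for all genes. The libraries numbered 1 therefore deviated together, and the results are given from a fit without and a fit with the replicate number as a block.

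Most replication genes were lower after cDCBLD2 knockdown in the paired comparison, by modest amounts. With the replicate block, limma (adjusted p under 0.05 over all genes tested) called 31 of the 51 members lower, which is 60.8%, where 25.0% of all genes tested were called lower. It called 1 member higher, POLD4, where 9.94% of all genes were called higher, and 19 members were not called. None of the 51 passed a log2 fold change of 1 in size as well. Without the block, limma called 0 members lower and 0 higher, where 0.629% of all genes were called lower and 0.250% higher. At an unadjusted p under 0.05 the same fit gave 14 members lower and 0 higher, where 19.4% of all genes were lower and 6.78% higher. In bulk RNA, fewer cells in S phase and less of these mRNAs per cell cannot be told apart.

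The median log2 fold change of the members was -0.29, against -0.08 over all genes tested, and 50 of the 51 were negative, as were 62.4% of all genes. Taken pair by pair, the members' median difference was -0.34 in replicate 1, -0.18 in replicate 2 and -0.32 in replicate 3, while over all genes it was -0.08, -0.07 and -0.11. A total of 43 members were lower in all 3 pairs (84.3%, against 43.7% of all genes), and the exceptions were CDT1, FEN1, LIG1, MCM5, POLD2, POLD4, POLE4 and RFC2. The knockdown libraries all lay below the control libraries for 15 members (29.4%), where this held for 22.3% of all genes. They all lay above for 0 members, where 9.58% of all genes did so, and the groups of the other 36 overlapped.

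**Figure D1:**
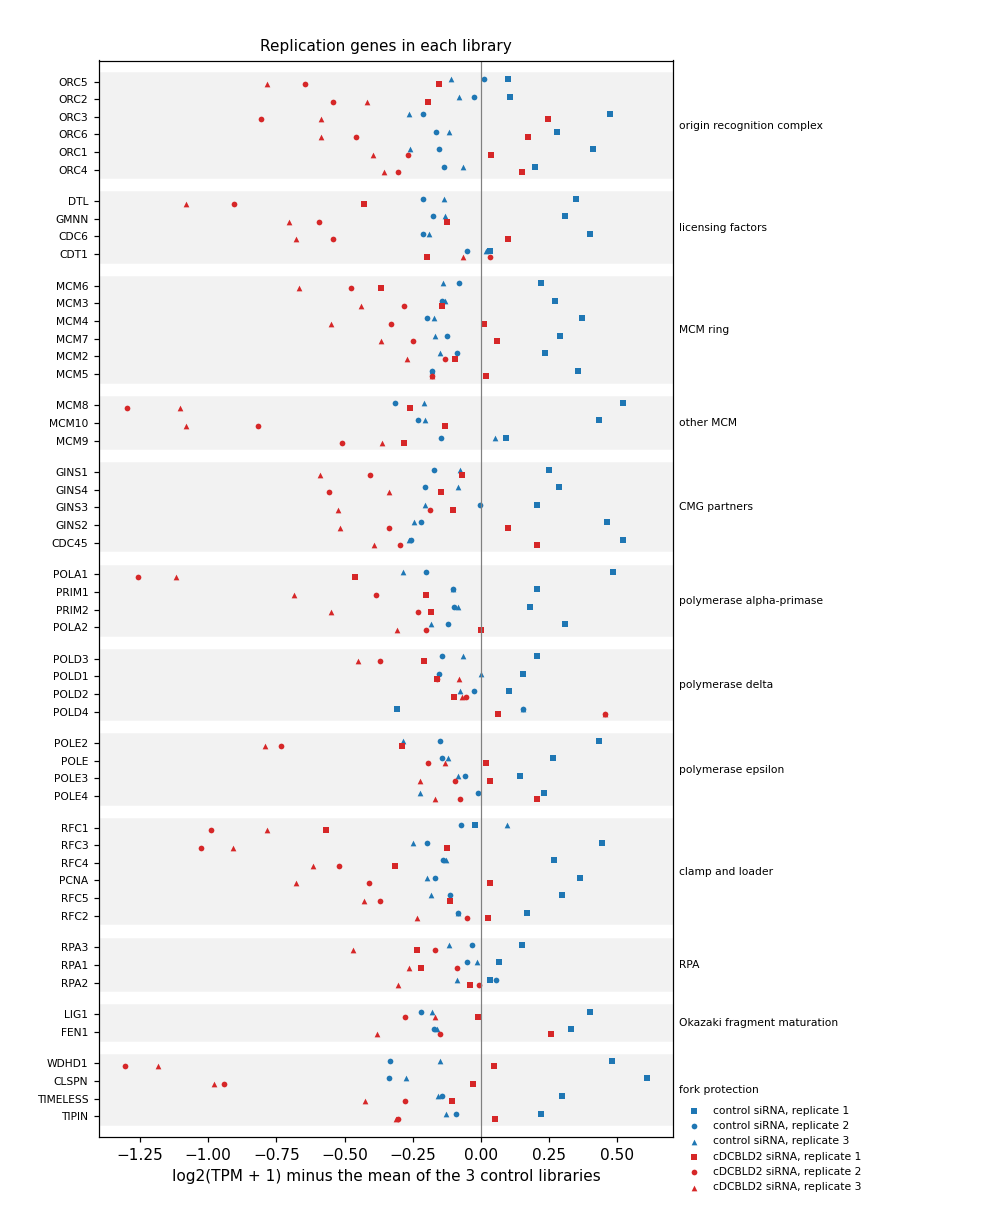
Level of each of the 51 replication genes in each library, as log2(TPM + 1) minus the mean of the 3 control libraries (x axis), grouped by complex; blue marks are control libraries, red marks are knockdown libraries, and squares, circles and triangles are replicates 1, 2 and 3. Squares lie to the right within their own colour for most genes, and 15 genes have all red marks to the left of all blue marks.

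In ORC, which marks origins and is needed to load the MCM ring, 4 of 6 subunits fell with the block (ORC2, ORC3, ORC5 and ORC6), and ORC1 and ORC4 were not called. With the block 25.0% of all genes tested were called lower and 9.94% higher, and the counts of the other complexes below stand beside the same shares. The median log2 fold change of the complex was -0.34. ORC5 (chr7:104126341-104208047, minus strand), an ATPase-fold subunit, had the largest difference. Its level was 26.6, 18.6 and 16.8 TPM in knockdown replicates 1, 2 and 3 and 31.9, 29.9 and 27.4 TPM in control replicates 1, 2 and 3, and the groups did not overlap. ORC5 averaged 20.6 ± 5.21 TPM (SD, n = 3) with cDCBLD2 siRNA against 29.7 ± 2.25 TPM (SD, n = 3) with control siRNA. The ORC5 log2 fold change was -0.53 ± 0.17 (standard error) without the block (limma adjusted p = 0.125) and -0.53 ± 0.099 with it (limma adjusted p = 0.0141). ORC4 had the smallest difference, with 5.95, 4.08 and 3.9 TPM after knockdown and 6.2, 4.71 and 4.99 TPM in control cells, and these groups overlapped. The ORC4 log2 fold change of -0.17 was not called with the block (limma adjusted p = 0.228). ORC1, the largest subunit and the one whose protein is known to cycle, stood at 26.5, 21.3 and 19.4 TPM after knockdown and at 34.7, 23.1 and 21.4 TPM in control cells, also overlapping (log2 fold change -0.21, limma adjusted p = 0.0839 with the block).

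Among the 4 factors that load the ring or restrain loading, CDC6, GMNN and DTL fell with the block and CDT1 was not called. DTL (chr1:212035553-212107400, plus strand) encodes the substrate receptor of the CRL4 ubiquitin ligase that removes CDT1 protein once PCNA is on the DNA. DTL was at 18.2, 12.8 and 11.2 TPM after knockdown and at 31.9, 21.3 and 22.5 TPM in control cells, and the groups did not overlap. Its mean was 14.1 ± 3.66 TPM (SD, n = 3) against 25.2 ± 5.78 TPM (SD, n = 3), 55.9% of control. DTL had a log2 fold change of -0.80 ± 0.22 (standard error) without the block (limma adjusted p = 0.0945) and of -0.80 ± 0.074 with it (limma adjusted p = 0.00444). CDT1 itself, the loading factor that DTL removes, gave 104, 122 and 114 TPM after knockdown and 122, 115 and 121 TPM in control cells. Its pairs went in different directions, with log2 differences of -0.23, 0.08 and -0.08, and the 95% interval of the log2 fold change with the block ran from -0.24 to 0.09 (limma adjusted p = 0.418). GMNN, which binds CDT1 and blocks re-licensing, was at 15.9, 11.2 and 10.3 TPM against 21.8, 15.3 and 15.8 TPM, a log2 fold change of -0.47 (limma adjusted p = 0.00846 with the block). The TPM ratio of GMNN to CDT1 was 0.153, 0.0921 and 0.0903 after knockdown and 0.178, 0.134 and 0.131 in control cells, lower in the knockdown library of each pair. With the GC correction described below the log2 fold changes of GMNN and CDT1 were -0.20 and -0.21, so the difference in this ratio is not seen there. CDC6, the ATPase that works with ORC in loading, averaged 22.3 ± 7.12 TPM (SD, n = 3) against 28.9 ± 7.64 TPM (SD, n = 3) and fell by 0.37 on the log2 scale with the block (limma adjusted p = 0.0116).

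In the MCM ring, the core of the replicative helicase, MCM3, MCM4, MCM6 and MCM7 fell with the block and MCM2 and MCM5 were not called. The median log2 fold change of the 6 was -0.24. MCM7 was the highest, at 527 to 832 TPM over the libraries, followed by MCM2 at 170 to 242 TPM. MCM3, MCM4 and MCM5 had ranges that overlapped, between 84.5 and 177 TPM in all, and MCM6 was the lowest on average, at 56.3 to 105 TPM. MCM6 (chr2:135839626-135876426, minus strand) gave 69.7, 64.5 and 56.3 TPM after knockdown and 105, 85.2 and 81.6 TPM in control cells, with no overlap. It averaged 63.5 ± 6.73 TPM (SD, n = 3) against 90.7 ± 12.7 TPM (SD, n = 3), and its log2 fold change of -0.50 had a limma adjusted p of 0.0849 without the block and of 0.00521 with it. At the other end, MCM5 gave 140, 122 and 122 TPM after knockdown and 177, 122 and 122 TPM in control cells. Its difference of -0.11 on the log2 scale lay in replicate 1, where it was -0.34, while the levels of the other two pairs were equal as printed (limma adjusted p = 0.31 with the block). Since a ring holds its subunits in equal number, their ratios within a library were also compared as a description. MCM6 per MCM2 was 0.362, 0.346 and 0.331 after knockdown and 0.435, 0.44 and 0.44 in control cells, and replicate 1 did not stand apart in this ratio. With the GC correction MCM6 and MCM2 had log2 fold changes of -0.21 and -0.24, so that this difference too is not seen there.

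The MCM proteins outside the ring showed the largest median difference of any group, -0.68 on the log2 scale, and MCM8, MCM9 and MCM10 fell with the block. MCM8 (chr20:5950652-5998977, plus strand) and MCM9 form a related helicase that acts in homologous recombination, and MCM10 is needed to set the CMG helicase in motion. MCM8 was at 9.05, 3.89 and 4.6 TPM after knockdown and at 16.3, 8.68 and 9.42 TPM in control cells. Knockdown replicate 1 lay between the control libraries, so the groups overlapped, while each pair differed by a similar amount, -0.78, -0.99 and -0.89 on the log2 scale. The mean after knockdown was 51.0% of control (5.85 ± 2.79 TPM against 11.5 ± 4.18 TPM, SD, n = 3), and the log2 fold change of -0.89 had a limma adjusted p of 0.161 without the block and of 0.00462 with it. MCM9, the lowest member in control cells, was at 2.44, 1.94 and 2.25 TPM against 3.46, 2.78 and 3.34 TPM, without overlap, and its log2 fold change was -0.39 (limma adjusted p = 0.141 without the block and 0.0415 with it). Exons of MCM9 (2.7 TPM on average) overlap those of ASF1A (25.7 TPM), and how shared reads were assigned is not given. MCM10 was at 18.8, 11.3 and 9.24 TPM against 28.3, 17.5 and 17.8 TPM, which overlapped, and it fell by 0.68 on the log2 scale with the block (limma adjusted p = 0.00664).

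All 4 GINS genes fell with the block and CDC45 was not called, in the group that turns the loaded ring into the CMG helicase. The log2 fold changes were close to each other, from -0.36 for GINS1 to -0.16 for CDC45, and for none of the 5 were the groups free of overlap. GINS1 (chr20:25407727-25452628, plus strand) was at 21.1, 16.5 and 14.4 TPM after knockdown and at 26.6, 19.6 and 21 TPM in control cells. It averaged 17.3 ± 3.4 TPM (SD, n = 3) against 22.4 ± 3.72 TPM (SD, n = 3), with a limma adjusted p of 0.237 without the block and of 0.02 with it. With the GC correction and the block GINS1 was at -0.02 (limma adjusted p = 0.88). CDC45 gave 44, 30.7 and 28.7 TPM after knockdown and 54.9, 31.6 and 31.5 TPM in control cells, and replicate 1 was the highest in both groups. Its log2 fold change was -0.16 (limma adjusted p = 0.719 without the block and 0.12 with it).

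Polymerase alpha-primase, which starts every Okazaki fragment, showed the largest split within a complex. POLA1 (chrX:24693919-24996986, plus strand), the catalytic subunit, was at 7.86, 4.11 and 4.63 TPM after knockdown and at 16.1, 9.63 and 9.01 TPM in control cells. The groups did not overlap, and the mean was 47.8% of control (5.53 ± 2.03 TPM against 11.6 ± 3.93 TPM, SD, n = 3). POLA1 had the lowest log2 fold change of all 51 members, -0.95, with a standard error of 0.28 without the block (limma adjusted p = 0.112) and of 0.086 with it (limma adjusted p = 0.00444). POLA2, the accessory subunit, was at 32.3, 28 and 25.9 TPM against 40.2, 29.6 and 28.3 TPM, groups that overlapped, and its log2 fold change of -0.17 was not called (limma adjusted p = 0.101 with the block). The ratio of POLA1 to POLA2 in TPM was 0.243, 0.147 and 0.179 after knockdown and 0.4, 0.326 and 0.318 in control cells, so POLA1 made up less of the pair in every knockdown library. For the primase, PRIM1, which holds the active site, fell by 0.42 on the log2 scale with the block (limma adjusted p = 0.0104), and PRIM2 had a log2 fold change of -0.32 that was not called (limma adjusted p = 0.0631).

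In polymerase delta, which extends the lagging strand, POLD3 fell and POLD4 rose with the block, and the catalytic subunit POLD1 and the subunit POLD2 were not called. POLD4 (chr11:67350777-67356972, minus strand), the smallest subunit, whose protein is known to be degraded after DNA damage, was at 201, 264 and 264 TPM after knockdown and at 155, 214 and 214 TPM in control cells. It was the only member with a positive log2 fold change, and replicate 1 was its lowest library in each group, the reverse of most members. POLD4 averaged 243 ± 36.4 TPM (SD, n = 3) against 194 ± 34.4 TPM (SD, n = 3), with an overlap through knockdown replicate 1. The pairs differed by 0.38, 0.30 and 0.30, and the log2 fold change of 0.33 had a limma adjusted p of 0.263 without the block and of 0.00637 with it. POLD3 was at 13.3, 11.8 and 11.1 TPM against 18.1, 14 and 14.8 TPM, without overlap, a log2 fold change of -0.34 (limma adjusted p = 0.156 without the block and 0.02 with it). POLD4 stood at 15.1, 22.4 and 23.8 times the TPM of POLD3 after knockdown and at 8.52, 15.3 and 14.5 times in control cells.

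Polymerase epsilon, which copies the leading strand, changed in 1 of 4 subunits. POLE2 (chr14:49643555-49688422, minus strand), the accessory subunit next to the catalytic POLE, was at 6.21, 4.3 and 4.09 TPM after knockdown and at 10.9, 6.95 and 6.24 TPM in control cells, and knockdown replicate 1 lay just under control replicate 3. POLE2 averaged 4.86 ± 1.17 TPM against 8.02 ± 2.49 TPM (SD, n = 3). Its log2 difference was -0.61 (limma adjusted p = 0.164 without the block and 0.00876 with it). POLE2 had the fewest recovered reads of the members, 98 to 201 per library. POLE4, a histone-fold subunit, showed the smallest difference of any member, with 81.7, 67 and 62.9 TPM against 83.2, 70.3 and 60.5 TPM and a 95% interval of the log2 fold change from -0.13 to 0.11 with the block. POLE and POLE3 each had a log2 fold change of -0.10 and were not called.

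**Figure D2:**
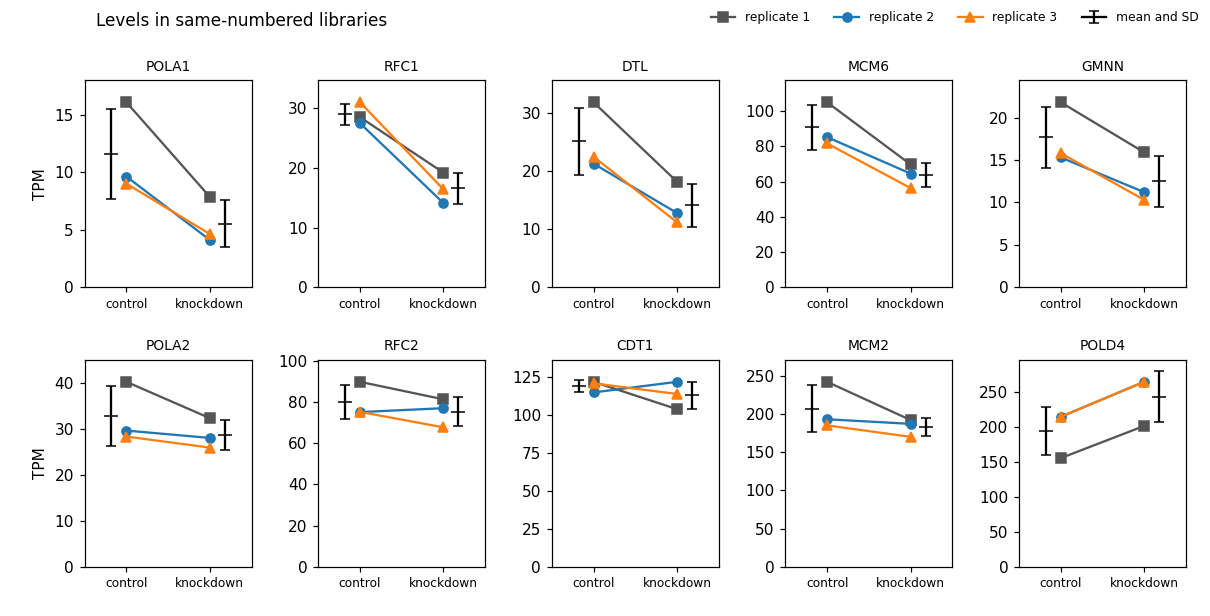
TPM (y axis, from 0) of 10 members in control and knockdown cells, with lines joining libraries of the same replicate number and black bars for the mean and SD of 3 libraries. POLA1, RFC1, DTL, MCM6 and GMNN are lower in the knockdown library of each pair, POLD4 is higher in each pair, and CDT1 and RFC2 go in different directions.

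The clamp and its loader had a median log2 fold change of -0.42, and 5 of 6 genes fell with the block, all but RFC2. PCNA, the clamp, was at 346, 254 and 211 TPM after knockdown and at 436, 301 and 295 TPM in control cells, which overlapped, and fell by 0.35 on the log2 scale with the block (limma adjusted p = 0.00936). RFC1 (chr4:39287456-39366375, minus strand), the large subunit of the loader, came closest to a call without the block. Its level was 19.2, 14.1 and 16.4 TPM after knockdown and 28.5, 27.5 and 31 TPM in control cells, and here replicate 1 did not stand apart in the control group. RFC1 averaged 16.6 ± 2.58 TPM (SD, n = 3) against 29 ± 1.79 TPM (SD, n = 3), and the groups did not overlap. The log2 fold change of -0.78 had a limma adjusted p of 0.0526 without the block, of 0.00587 with it, and of 0.0389 in limma-voom on the recovered reads without a block. RFC2, a small subunit, was at 81.3, 77 and 67.7 TPM against 89.8, 75.1 and 75.2 TPM, with pairs at -0.14, 0.04 and -0.15 on the log2 scale, and was not called (limma adjusted p = 0.278 with the block). RFC1 per RFC2 was 0.236, 0.183 and 0.243 after knockdown and 0.318, 0.367 and 0.412 in control cells. RFC3, another small subunit, gave the lowest value of any member in a library, with 3.86, 1.6 and 1.82 TPM against 6.21, 3.62 and 3.45 TPM, and fell by 0.69 on the log2 scale with the block (limma adjusted p = 0.0103).

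Of RPA, the trimer that coats single-stranded DNA, RPA3 was called lower with the block, and neither of the enzymes that join Okazaki fragments was called. RPA3 (chr7:7636518-7718607, minus strand) was at 32.6, 34.1 and 27.5 TPM after knockdown and at 42.8, 37.6 and 35.4 TPM in control cells, without overlap, and fell by 0.29 on the log2 scale with the block (limma adjusted p = 0.17 without the block and 0.0253 with it). RPA2 was at 47, 48.1 and 38.9 TPM against 49.4, 50.2 and 45.4 TPM, and neither RPA2 (log2 fold change -0.11) nor RPA1 (-0.19) was called. RPA was the group in which replicate 1 was the highest knockdown library for none of its 3 genes. FEN1, the flap nuclease, gave 167, 126 and 107 TPM after knockdown and 176, 124 and 125 TPM in control cells, a log2 fold change of -0.09 with a 95% interval from -0.24 to 0.06 with the block. LIG1, the ligase that seals the fragments, gave 35.9, 29.6 and 32.1 TPM against 48, 30.9 and 31.8 TPM, a log2 fold change of -0.15 with an interval from -0.39 to 0.08. The interval of LIG1 includes both 0 and decreases as large as those of members that were called.

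Of the fork protection genes, WDHD1, CLSPN and TIMELESS fell with the block and TIPIN was not called. WDHD1 (chr14:54938950-55027105, minus strand), which ties polymerase alpha to the CMG helicase, was at 9.95, 3.29 and 3.66 TPM after knockdown and at 13.8, 7.42 and 8.56 TPM in control cells. Knockdown replicate 1 lay above control replicates 2 and 3, so the groups overlapped, and the pairs differed by -0.43, -0.97 and -1.04 on the log2 scale. The mean was 5.63 ± 3.74 TPM against 9.92 ± 3.39 TPM (SD, n = 3), and the log2 fold change of -0.81 had a limma adjusted p of 0.247 without the block and of 0.0118 with it. CLSPN, the adaptor that passes the stalled-fork signal to CHK1, was at 4.66, 2.01 and 1.93 TPM against 7.82, 3.58 and 3.78 TPM and fell by 0.65 on the log2 scale with the block (limma adjusted p = 0.00906). TIMELESS, which travels with the fork, fell by 0.27 with the block (limma adjusted p = 0.0243). Its partner TIPIN was at 9.6, 7.27 and 7.23 TPM against 10.9, 8.6 and 8.35 TPM, a log2 fold change of -0.19 (limma adjusted p = 0.104 with the block).

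**Figure D3:**
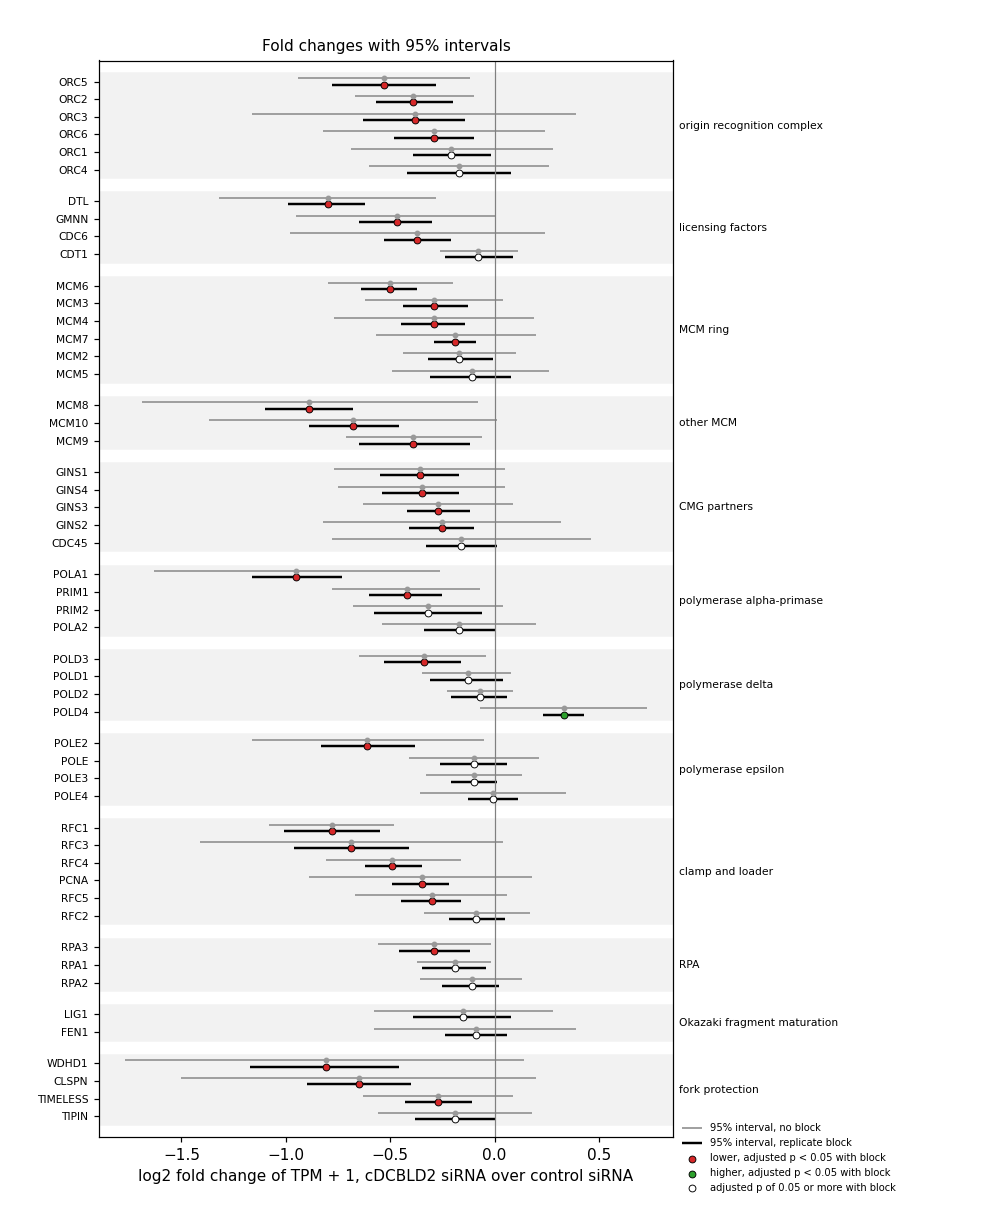
Log2 fold change of TPM + 1, knockdown over control (x axis), for each member by complex, with the 95% interval without the block in grey and with the replicate block in black; red points were called lower with the block, the green point higher, and white points were not called. The intervals without the block are wider for most members, and POLD4 is the only point to the right of 0.

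A second list held 36 other genes of replication that are not members, among them the kinases that fire origins, regulators of licensing, PCNA unloaders, primer and flap removal enzymes, chromatin factors of the fork and factors that take the fork apart. All 36 were tested, and 18 were lower and 0 higher with the block, where 25.0% of all genes were lower. Without the block limma called 0 in either direction, where 0.629% of all genes were called lower and 0.250% higher. At an unadjusted p under 0.05 that fit gave 11 lower, where 19.4% of all genes were lower. The median log2 fold change of the list was -0.30. Origin firing factors moved most, with 6 of 8 lower with the block and a median of -0.55, and of the 5 primer and flap removal genes 1 was lower, DNA2. TOPBP1, the scaffold that brings firing factors together, was at 23.5, 8.16 and 9.77 TPM after knockdown and at 42.2, 22 and 25 TPM in control cells. The TOPBP1 log2 fold change of -1.14 had a limma adjusted p of 0.152 without the block and of 0.00481 with it, and it was the 1 gene of the list past a log2 fold change of 1 in size as well. CDC7, the kinase that phosphorylates the MCM ring, was at 9.09, 3.52 and 4.49 TPM against 16.4, 8.89 and 9.54 TPM, a log2 fold change of -0.95 (limma adjusted p = 0.00494 with the block). DNA2, a nuclease and helicase for long flaps, was at 6.48, 2.04 and 2.41 TPM against 10.5, 6.15 and 5.53 TPM, a log2 fold change of -0.93 (limma adjusted p = 0.00876 with the block). For each of these 3 genes knockdown replicate 1 lay inside the control range, and the groups overlapped. The 3 highest of the list were CHTF8, a part of an alternative clamp loader, RECQL4, which takes part in initiation, and TONSL, a reader of new histones. CHTF8 was at 109, 116 and 125 TPM against 103, 110 and 105 TPM (log2 fold change 0.14, limma adjusted p = 0.0963 with the block). RECQL4 was at 65.5, 52.1 and 50 TPM against 68.3, 49.4 and 46.1 TPM, and TONSL at 51.3, 43.6 and 43.1 TPM against 54.9, 42.1 and 41.8 TPM, and neither was called.

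The size of the difference followed the GC content of the transcripts, among the members and among all genes. Spearman's rho between log2 fold change and GC content was 0.762 over the 51 members and 0.648 over 12962 genes with a known transcript, points that share the same 6 libraries and are no independent replicates. The members ranged from 37.7% GC (ORC4) to 65.0% (POLD1). Of the 22 members under 45% GC, 19 were lower with the block (86.4%, against 54.4% of all genes in that range), and their median log2 fold change was -0.49 against -0.35. Between 45% and 50% GC, 9 of 12 members were lower (75.0% against 28.8%), with medians of -0.29 and -0.14. At 50% GC or more, 3 of 17 were lower (17.6% against 5.56%), with medians of -0.13 and 0.05. Within complexes GC content and the size of the difference did not always go together. In polymerase alpha-primase POLA1 has 42.9% GC and POLA2 54.5%, but PRIM1 (40.1% GC, log2 fold change -0.42) and PRIM2 (41.6% GC, -0.32) differed less than POLA1 (-0.95) at a lower GC content. RFC1 has 41.7% GC and RFC2 53.6%.

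After the GC trend of every library had been taken out, the members' median log2 fold change was -0.16 against 0.01 over all genes, and 43 of 51 were negative. In that scale limma with the block called 14 members lower (27.5%), where 12.1% of all genes were lower, and 1 higher, where 12.8% of all genes were higher. Of the 14, 11 were also among the 31 called without the GC correction: MCM3, MCM7, MCM8, MCM10, DTL, POLA1, RFC1, RFC4, WDHD1, TIMELESS and CLSPN. The other 3 were GC-rich genes that had not been called before, CDT1 (log2 fold change -0.21, limma adjusted p = 0.044), MCM2 (-0.24, limma adjusted p = 0.0297) and POLD1 (-0.27, limma adjusted p = 0.0225). POLA1 had the largest difference, -0.65 (limma adjusted p = 0.00911), followed by MCM8 at -0.56 (limma adjusted p = 0.0082) and DTL at -0.48 (limma adjusted p = 0.0108). POLA2 was at -0.19 and RFC2 at -0.09 against -0.45 for RFC1, values whose difference was not tested. POLD4 was again the 1 gene higher, at 0.27 (limma adjusted p = 0.0113). No gene of ORC, the CMG partners, polymerase epsilon, RPA or Okazaki fragment maturation was called in that fit, and MCM6 had a log2 fold change of -0.21 (limma adjusted p = 0.0688). Without the block, 0 members were called after the GC correction, where 2 of all genes were called lower and 3 higher. In that fit 6 of the 51 members had an unadjusted p under 0.05, as did 2742 of all 12962 genes. Spearman's rho between log2 fold change and transcript length was -0.299 over the members before the GC correction and -0.445 after it. Over all genes with a known transcript it was -0.283 and -0.124, so a relation with length remained. Whether the trends with GC content and length are technical was not tested.

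**Figure D4:**
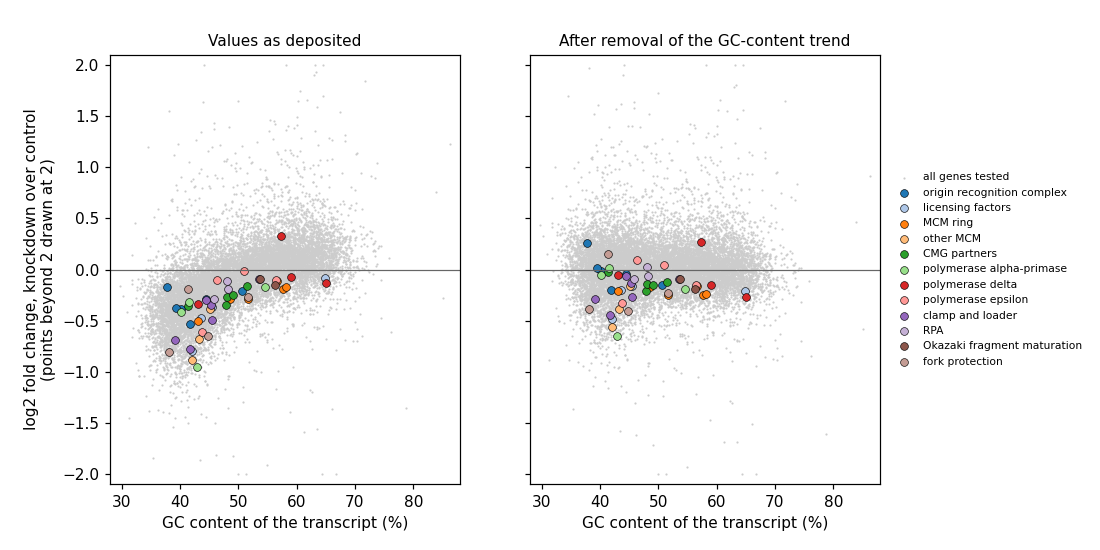
Log2 fold change, knockdown over control (y axis), against transcript GC content (x axis, percent) for the members, coloured by complex, over all genes tested in grey, before (left) and after (right) the GC trend of every library was taken out. On the left the members rise with GC content, with a Spearman's rho of 0.762, and on the right the rho is -0.0383.

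Members with and without the E2F-type motif were set side by side as a description, with no test. The 23 with the motif had a median log2 fold change of -0.35 and 16 were lower with the block, and the 22 without it had a median of -0.28 with 11 lower and POLD4 higher. With the block 25.0% of all genes tested were lower and 9.94% higher. After the GC correction with the block, 8 and 6 of them were lower, where 12.1% of all genes were lower. The promoters of POLA1, DTL and MCM6 printed above belong to genes that fell with the block and hold the motif, though MCM6 was not called after the GC correction. POLE4 and CDT1, with log2 fold changes of -0.01 and -0.08, hold the motif too and were not called with the block alone. With the GC correction and the block CDT1 was called lower (-0.21, limma adjusted p = 0.044) and POLE4 was not called. WDHD1 and RFC1, with log2 fold changes of -0.81 and -0.78, have no match in the window.

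Without a block, leaving out control replicate 1 gave 0 members in either direction, and 0 of all 13980 genes tested. With knockdown replicate 1 left out and no block, limma called 14 members lower, all of them among the 31, and 0 higher, where 19.8% of all genes were lower and 4.64% higher. With replicates 2 and 3 of both groups alone and no block, a setting chosen after seeing the data, 23 members were lower and 1 higher. In that fit 25.3% of all genes were lower and 9.68% higher. In limma-voom on the recovered reads 1 member was lower, RFC1, and 0 higher, where 1.72% of 15018 genes were lower and 1.29% higher. Limma-voom with the block gave 24 members lower, all among the 31, and 1 higher, where 20.5% of all genes were lower and 17.5% higher. Exons of 12 members overlap another gene at 1 TPM or more in the annotation. Among them are MCM9 (2.7 TPM on average) with ASF1A (25.7 TPM) and RFC4 with EIF4A2 (431 TPM). Others are FEN1 with TMEM258 and FADS2, PRIM1 with NACA and RFC5 with WSB2. How reads shared by such genes were assigned is not given in the sources used here.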

How the data were processed

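Total RNA of HCCLM3-SR cells was sequenced as PolyA-Seq libraries, 3 per group, grouped by the sample labels. The authors deposited TPM values per gene, which sum to 1000000 in each library; the submitters' processing notes name fastp 0.20.1, HISAT2 2.1.0, StringTie 2.0 and hg38, and strand and multimapping settings are not given in the sources used here. TPM is no count, so the test was limma 3.58.1 in R 4.3.3 on log2(TPM + 1) values with a mean-variance trend, two-sided, for genes that averaged at least 1 TPM, with Benjamini-Hochberg adjustment over 13980 genes and calls at an adjusted p under 0.05. Fold changes of low genes are understated on this scale.

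The main fit has no block, since the study's methods name none. Pairs were taken from the titles' replicate numbers, whose meaning is not given. Over 13980 genes, deviations from the group means correlated at 0.56, 0.343 and 0.362 for libraries numbered 1, 2 and 3. Between a library numbered 1 and one numbered 2 or 3 the correlations were -0.45 to -0.376. Between numbers 2 and 3 they were 0.215 and 0.247, not far below those within these numbers. The pairing of libraries 2 and 3 is therefore uncertain, and calls with the block rest on it. Single values can be compared by an exact permutation test, which cannot give a two-sided p under 0.1 with 3 against 3, so none is printed.

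Reads were recovered from the ratios of TPM values between libraries. Of the 17285 genes above 0 in all libraries, 100.0% gave whole reads within 0.02 of a read, against 4.68% of 1729 genes with the library factors moved by up to 10%. The totals are lower bounds. Limma-voom used genes with at least 10 such reads in 3 libraries. GC content came from GENCODE release 29, which may not be the authors' annotation; 25655 genes matched by symbol, 564 by an older name and 12418 did not, and 92.7% of the genes tested had a value. Trends with GC content were removed per library by loess with a span of 0.5. Promoter motifs were searched on both strands in RefSeq windows. Member positions are from GENCODE release 29 on GRCh38.

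In simulated data over 13980 genes with 200 changed and a replicate effect of SD 0.3, limma called 85.5% of the 200 without the block and 94.0% with it, and 1.72% and 8.74% of its calls were false. The changes put in were larger than that of any member, and the replicate effect was drawn separately for each gene. These shares therefore do not measure recovery or false calls for differences of the members' size. The members and lists were chosen with earlier results of these data known. All 6 values are given for the member with the lowest and the highest log2 fold change of each complex and for the 3 lowest and 3 highest of the second list. Those of ORC1, GMNN, MCM10, PCNA, RFC3, CLSPN and RPA1 were added after their values were seen. Alternatives were another pseudocount, filter or scaling, GC correction, protein-coding genes alone, limma-voom, the replicate block and leaving out libraries. The software was Python 3.11.15, pandas 2.3.3, numpy 2.4.6, scipy 1.17.1, numba 0.67.0 and matplotlib 3.10.9.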

Additional observations from a re-analysis of the deposited data

How the results depend on the processing

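The replicate block decided most calls: it took the members called lower from 0 to 31 and higher from 0 to 1, the second list from 0 to 18 lower, and all genes from 88 to 3501 lower and from 35 to 1390 higher. With the GC correction and the block the members gave 14 lower and 1 higher, the second list 9 and 1, and all genes 1566 and 1656, and with the GC correction alone all genes gave 2 and 3. The members' median log2 fold change was -0.16 in both GC-corrected fits, -0.13 with equal medians, which moved the median of all genes by 0.16, -0.20 in limma-voom and -0.19 in limma-voom with the block. Limma-voom called 1 member and 1 gene of the second list lower and, of all genes, 259 lower and 193 higher; with the block it called 24 members lower and 1 higher, 18 of the second list lower and 1 higher, and 3081 and 2627 of all genes. With replicates 2 and 3 alone, chosen after seeing the data, 23 members were lower and 1 higher, 18 of the second list were lower, and all genes gave 3538 lower and 1353 higher. At a mean of at least 5 TPM, with equal medians and in protein-coding genes alone, 1 member and 1 gene of the second list were lower, as was 1 gene of the second list with a pseudocount of 0.1. All genes gave 238 lower and 83 higher at 5 TPM, 288 and 106 in protein-coding genes, 1 and 3 with no filter, 59 higher with upper-quartile scaling and 250 higher with equal medians, where 71.0% of the calls were higher against 28.5% in the fit as reported, 48.8% with upper-quartile scaling, 51.4% with the GC correction and block, and 46.0% in limma-voom with the block. Leaving out each library without a block gave 0 to 14 members lower, 0 higher, a median from -0.40 to -0.16, 0 to 12 of the second list lower, and 0 to 2771 lower and 0 to 649 higher of all genes; calls came only without knockdown replicate 1, and the other 5 such fits had 2161 to 2803 genes at an unadjusted p under 0.05.

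Some of the genes named by rule changed sign, none past the threshold. With equal medians MCM5 was at 0.05, CDT1 at 0.09, CDC45 at 0.0033, POLE4 at 0.15, RFC2 at 0.08, RPA2 at 0.05, LIG1 at 0.01, FEN1 at 0.07 and TONSL at 0.16. With the GC correction, with or without the block, ORC4 was at 0.26, POLE4 at 0.04, RPA2 at 0.02, TIPIN at 0.15 and RECQL4 at -0.10; outside that rule ORC3 went from -0.38 to 0.01, PRIM2 from -0.32 to 0.01, POLE3 from -0.10 to 0.09, KAT7 from -0.09 to 0.11, CUL4A from -0.30 to 0.02, RNASEH2B from -0.30 to 0.01 and ASF1A from -0.20 to 0.29, the last called higher with the block (limma adjusted p = 0.0299). In limma-voom CDT1 was at 0.02 (0.03 with the block), POLE4 at 0.09 (0.08), RFC2 at 0.01 in both, FEN1 at 0.0038 (0.0049) and TONSL at 0.10 in both. With upper-quartile scaling POLE4 was at 0.06 and TONSL at 0.07, and with replicates 2 and 3 alone MCM5 was at 0.00098, CDT1 at 0.00027 and TONSL at 0.05. Leaving out each library gave MCM5 -0.20 to 0.06, CDC45 -0.35 to 0.10, POLE4 -0.12 to 0.10, LIG1 -0.26 to 0.05, FEN1 -0.27 to 0.07, TONSL -0.08 to 0.13 and RECQL4 -0.07 to 0.21. The cause of these shifts was not tested. POLE2, with 98 to 201 reads per library, is the member whose values depth limits most.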

Other observations

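In the second list, 2 pairs of partners outside the members were unequal, and they are named here after their values were seen. CUL4B and CUL4A are alternative scaffolds of the CRL4 ubiquitin ligase, in which the DTL protein is the substrate receptor. CUL4B was at 16.3, 12.1 and 14.7 TPM after knockdown and at 28.2, 23.6 and 26.1 TPM in control cells, a log2 fold change of -0.81 (limma adjusted p = 0.0518 without the block and 0.00436 with it). CUL4A was at 18.6, 16.5 and 14 TPM against 20.3, 20.3 and 20.2 TPM, a log2 fold change of -0.30 (limma adjusted p = 0.162 without the block and 0.049 with it). With the GC correction and the block, CUL4B was lower by -0.38 on the log2 scale (limma adjusted p = 0.0135) and CUL4A was at 0.02 (limma adjusted p = 0.836).

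SUPT16H and SSRP1 form FACT, which moves histones at the fork. SUPT16H was at 71.1, 45.9 and 47.1 TPM after knockdown and at 108, 84.3 and 89.4 TPM in control cells, a log2 fold change of -0.79 (limma adjusted p = 0.0788 without the block and 0.00444 with it). SSRP1 was at 209, 213 and 200 TPM against 266, 224 and 224 TPM, a log2 fold change of -0.20 (limma adjusted p = 0.205 without the block and 0.0567 with it). For all 4 of these genes the groups did not overlap. The transcripts of CUL4B and SUPT16H have 37.7% and 44.4% GC, and those of CUL4A and SSRP1 42.1% and 53.1%.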
